A study of Mus musculus with 12 samples.

Results

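The genes that build the red cell's membrane and its supporting skeleton were followed through lineage-negative Sca-1+ c-Kit+ cells (LSKs), the bone marrow fraction that holds the stem cells and the earliest progenitors of blood. The 8 genes, chosen by name out of the 53465 in the gene expression table, were Slc4a1, Ank1, Epb42, Sptb, Rhag, Rhd, Add2 and Kel. RNA sequencing was done on 12 libraries in 4 groups of 3. The untreated groups were wild type littermates (Tespa1+/+) and Tespa1-/- mice, a line with a targeted allele rather than a deletion limited to blood cells. The treated groups were the same genotypes on day 9 following a single injection of 150 mg/kg 5-FU (5-fluorouracil), a drug that kills dividing cells. The mice were males of 8 to 10 weeks, and the mutant line had been crossed to C57BL/6 for more than 6 generations. The cells in every group were selected for the absence of CD3e, CD11b, Gr-1, B220 and the red cell antigen Ter-119. Nothing in the labels says how many animals gave each library, so the p-values describe the spread between these libraries, which may be in part technical.

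A red cell has no internal scaffold, and it keeps its shape with a net of spectrin laid under the membrane. Sptb encodes the beta chain of that net, adducin (Add2 gives the beta subunit) caps its actin nodes, and ankyrin (Ank1) ties it to band 3 (Slc4a1), the chloride and bicarbonate exchanger that is the most abundant protein of the red cell membrane. Protein 4.2 (Epb42) steadies the band 3 and ankyrin contact, the Rh-associated glycoprotein (Rhag) and the Rh protein (Rhd) form an ammonia or gas channel complex beside it, and Kel encodes the surface peptidase that carries the Kell blood group. In the marrow these genes are switched on as erythroid precursors mature, under the transcription factors GATA1 and KLF1, and inherited loss of several of them causes spherocytosis.

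The libraries held 22118154 to 28275079 counts each, so that 3 counts, the upper limit that a count of 0 allows, corresponded to 0.106 to 0.136 counts per 1000000 (CPM). Tespa1 reads were fewer in the mutant but not absent. It stood at 51, 43.1 and 46.5 CPM in untreated Tespa1+/+ against 34.5, 34.9 and 34.9 CPM in untreated Tespa1-/-, and at 47.1, 55 and 57.2 against 20.7, 19.6 and 17.2 CPM after 5-FU, with no overlap between genotypes. Genes that mark LSKs were present in every library. The summed level of 10 of them, Kit and Ly6a (Sca-1) included, ran from 1750 to 1813 CPM in untreated Tespa1+/+ and from 886.6 to 961 CPM in Tespa1-/- after 5-FU, and none of the 10 was at 0. Most of that fall lay in Flt3, from a mean of 614.5 to 168.6 CPM, and Cd34, from 400 to 155.5 CPM. Between the same groups Kit went from 412.6 to 340.4 CPM and Ly6a from 22 to 15.2 CPM. The means of Slamf1, Procr and Mecom were not lower. Such bulk libraries do not tell more cells of a type apart from more RNA per cell.

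The 8 genes lie on 7 chromosomes. On the GRCm38 mouse assembly Slc4a1 is at chr11:102348824-102366203, Ank1 at chr8:22974844-23150497, Epb42 at chr2:121017891-121037072 and Sptb at chr12:76580488-76710547. Rhag is at chr17:40811126-40840754, Rhd at chr4:134864536-134896172, Add2 at chr6:86028681-86124409 and Kel at chr6:41686330-41704339. Add2 and Kel therefore share a chromosome but lie far apart on it. The RefSeq promoter set for GRCm38.p6 had entries for 6 of the 8, all but Slc4a1 and Ank1. The 250 bases before each start were searched on both strands for AGATAA and TGATAA, which share the GATAA core that GATA factors bind, and for CCNCNCCC, the core of the sites bound by KLF1. AGATAA or TGATAA was found in 4 of the 6 windows and in 16.6% of the 32851 windows of the whole set. CCNCNCCC was found in 2 of the 6 and in 45.9% of all. The stricter CCACACCC, which lies within that pattern, was found in 0 of the 6 and in 3.2% of all. A match is only a run of letters and not a measured site, and a window without one says nothing of the factor. Shown here are the 3 windows in which the GATA-type letters lie within the last 60 bases before the start, and Sptb as a window that has none, each read 5′ to 3′ on the gene's own strand with every match in capitals.
Rhag: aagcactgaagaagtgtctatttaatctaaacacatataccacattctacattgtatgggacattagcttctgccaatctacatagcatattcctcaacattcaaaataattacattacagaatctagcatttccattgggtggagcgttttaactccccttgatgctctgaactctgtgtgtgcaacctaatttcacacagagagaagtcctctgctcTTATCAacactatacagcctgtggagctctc
Rhd: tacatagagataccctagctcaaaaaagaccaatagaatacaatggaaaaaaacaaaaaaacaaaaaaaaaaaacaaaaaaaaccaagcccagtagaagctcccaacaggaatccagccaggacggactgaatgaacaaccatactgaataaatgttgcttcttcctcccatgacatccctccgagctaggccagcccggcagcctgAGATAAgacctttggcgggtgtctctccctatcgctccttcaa
Kel: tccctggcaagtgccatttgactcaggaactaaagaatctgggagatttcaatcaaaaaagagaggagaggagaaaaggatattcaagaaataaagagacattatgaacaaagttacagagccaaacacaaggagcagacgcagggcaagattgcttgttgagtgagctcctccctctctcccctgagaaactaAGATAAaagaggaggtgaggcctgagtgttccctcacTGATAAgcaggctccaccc
Sptb: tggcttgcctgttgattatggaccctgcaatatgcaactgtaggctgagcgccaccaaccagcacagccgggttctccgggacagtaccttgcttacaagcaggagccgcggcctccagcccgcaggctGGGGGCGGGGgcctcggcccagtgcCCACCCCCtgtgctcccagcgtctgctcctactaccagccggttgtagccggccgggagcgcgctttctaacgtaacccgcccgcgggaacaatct
The Rhag window spans chr17:40810899-40811148 and the Rhd window chr4:134864286-134864535, both on the plus strand. The Kel window spans chr6:41704326-41704575 and the Sptb window chr12:76710548-76710797, both on the minus strand. TTATCA in Rhag is TGATAA read on the other strand, and Kel holds AGATAA and TGATAA one after the other. In Sptb the capitals are CCNCNCCC, with 2 overlapping matches on the reverse strand and 1 on the forward strand. The fourth window with GATA-type letters was that of Epb42, where AGATAA on the reverse strand ended 221 bases before the start. Add2 held CCNCNCCC alone.

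Summed over the 8 genes, the level was 14.5 ± 2.22 CPM (SD, n = 3) in untreated Tespa1+/+, 39.6 ± 3.81 CPM in untreated Tespa1-/-, 49.7 ± 6.55 CPM in Tespa1+/+ after 5-FU and 473 ± 20.4 CPM in Tespa1-/- after 5-FU. The sum had a low group, a pair of middle groups and a high group. All 8 genes were higher in every Tespa1-/- library after 5-FU than in any other library, as were 8.56% of the 18696 genes tested over all 12 libraries. Apart from Slc4a1, whose other 3 groups overlapped, 7 of the 8 were also higher in every untreated Tespa1-/- library, and in every Tespa1+/+ library after 5-FU, than in any untreated Tespa1+/+ library, as were 4.13% of those genes. Between the middle groups, 7 of the 8 had the higher mean in Tespa1+/+ after 5-FU, all but Slc4a1. Of the 8, only Epb42 had all its libraries after 5-FU in Tespa1+/+ above all those of untreated Tespa1-/-, a share near the 13.6% of those genes that did so.

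**Figure D1:**
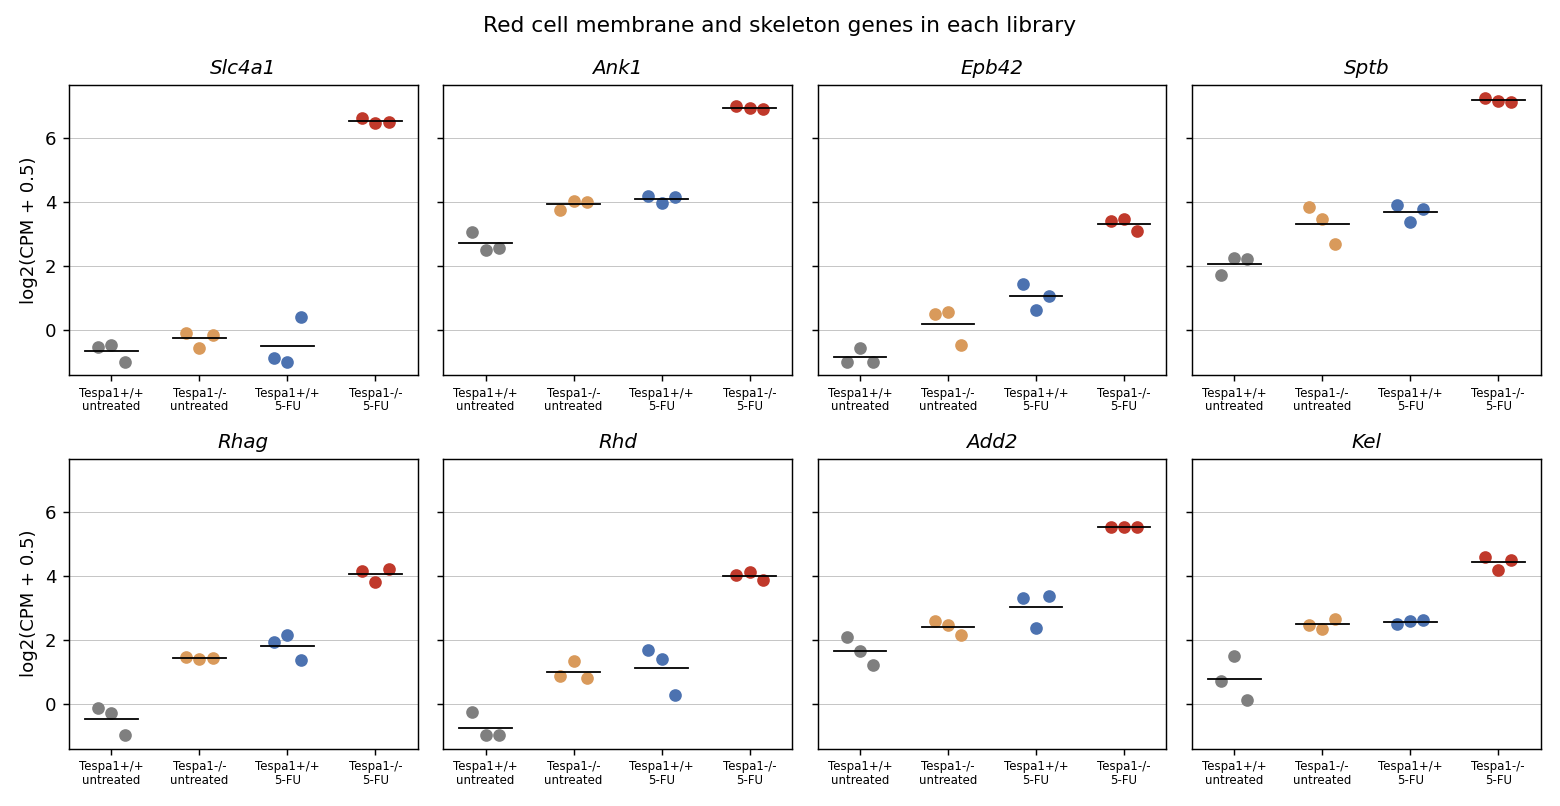
Level of each of the 8 genes in the 12 libraries, as log2(CPM + 0.5), where each point is 1 library and each bar the mean of 3. In every panel the 3 Tespa1-/- libraries after 5-FU sit on top, and in the Slc4a1 panel the other 9 libraries lie together near the bottom.

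The comparison of genotypes after 5-FU asks how LSKs of Tespa1-/- mice differ while the marrow recovers. All 8 genes were tested and all 8 rose in Tespa1-/- by the quasi-likelihood test of edgeR, with p-values adjusted by Benjamini-Hochberg over 17239 genes, of which 7.34% rose at the same adjusted p of 0.05. The fitted changes ran from 1.97 to 8.37 on the log2 scale, with a median of 2.73 against -0.0097 over all genes tested. The groups did not overlap for any of the 8, which was so, in the upward direction, for 17.2% of all genes tested. Slc4a1 had passed the filter on low counts through the Tespa1-/- libraries alone, so it could enter this test only with a difference. With 3 libraries against 3 an exact permutation test of a single gene cannot go below p = 0.1, the value each of the 8 gave.

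Among the skeleton genes, Sptb stood at 14.6, 9.97 and 13.4 CPM in the Tespa1+/+ libraries after 5-FU and at 153, 145 and 139 CPM in the Tespa1-/- libraries. The Tespa1-/- libraries were all far above and close to one another. Its fitted log2 change was 3.53 (SE 0.14, edgeR adjusted p = 6.1e-07), about 11.5-fold. Exons of Sptb overlap exons of Plekhg3 on the opposite strand, and whether the counting used strand is not given in the sources used here. Plekhg3 itself had mean counts of 1064 and 1502 in the same groups, where Sptb had at most 375 counts in a Tespa1+/+ library and at least 3094 in a Tespa1-/- library. Ank1 stood at 17.8, 15.2 and 17.4 CPM in Tespa1+/+ and at 130, 123 and 122 CPM in Tespa1-/-. The groups were again well apart, and the log2 change was 2.89 (SE 0.09, edgeR adjusted p = 2.56e-07). Add2 went from 9.33, 4.66 and 9.92 CPM to 46.2, 45.6 and 46.1 CPM. The second Tespa1+/+ library was the low one for this adducin gene, while its 3 mutant libraries were almost equal, and the log2 change was 2.53 (SE 0.25, edgeR adjusted p = 2.11e-04).

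Of the genes of the band 3 complex, Slc4a1 changed most. It was counted 1, 0 and 20 times in the Tespa1+/+ libraries after 5-FU and 2749, 2290 and 2037 times in the Tespa1-/- libraries, which is 0.0389, 0 and 0.823 CPM against 99.7, 88.2 and 91.7 CPM. Only the third Tespa1+/+ library held more counts than the 3 that a count of 0 allows. The log2 change was 8.37 (SE 0.52, edgeR adjusted p = 1.45e-05), and the ratio of the summed counts, set per library size, was 338, with a 95% counting interval of 221 to 546. Without the third Tespa1+/+ library the log2 change was 11.91 and without the second it was 7.77, so the size of the change rests on a handful of reads although the call did not depend on them. Epb42 was low everywhere, at 2.22, 1.04 and 1.61 CPM in Tespa1+/+ and 10.1, 10.6 and 8.06 CPM in Tespa1-/-. Its groups did not touch, and its log2 change was 2.56 (SE 0.32, edgeR adjusted p = 7.96e-04).

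Rhag and Rhd, the Rh genes, were low in Tespa1+/+ and both rose. Rhag stood at 3.35, 3.93 and 2.06 CPM in Tespa1+/+ and at 17.4, 13.6 and 18.1 CPM in Tespa1-/-, a log2 change of 2.39 (SE 0.27, edgeR adjusted p = 4.6e-04). Rhd stood at 2.68, 2.12 and 0.7 CPM against 15.9, 17 and 14.1 CPM, a log2 change of 3.09 (SE 0.40, edgeR adjusted p = 0.00102). The third Tespa1+/+ library was the lowest for both Rhag and Rhd. The difference between the changes of these genes was not tested. Kel had the smallest change of the 8, from 5.09, 5.54 and 5.68 CPM to 23.9, 17.6 and 22.3 CPM, which was 1.97 on the log2 scale (SE 0.18, edgeR adjusted p = 1.58e-04). The groups were well apart for this blood group peptidase too, with the second mutant library the lowest of its 3.

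**Figure D2:**
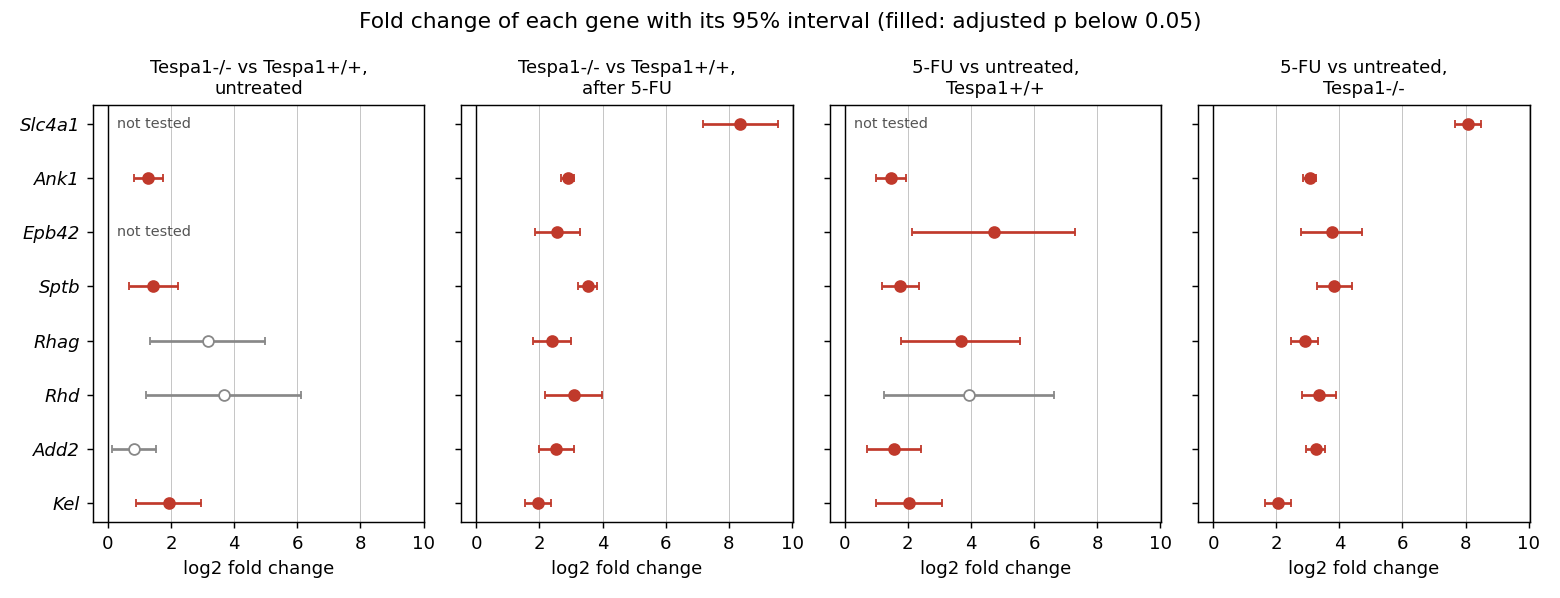
Fitted log2 fold change of each gene with its 95% interval in the 4 comparisons of 6 libraries, filled where the adjusted p was below 0.05. After 5-FU all 8 genes lie above 1.5 on the log2 scale in the genotype comparison, Slc4a1 at 8.37 standing apart, and in both comparisons that use the untreated Tespa1+/+ libraries the intervals of Rhag and Rhd are wide.

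Within Tespa1-/- mice the comparison of 5-FU with no treatment gave the same 8 genes, and it uses the same mutant libraries after 5-FU as the comparison above. All 8 rose, where 10.7% of 17228 genes tested rose by the edgeR quasi-likelihood test, and the groups did not overlap for any of the 8, as for 19.8% of all genes in this direction. The changes ran from 2.06 to 8.09 on the log2 scale. Slc4a1 stood at 0.439, 0.177 and 0.393 CPM before treatment, which is 10, 4 and 9 counts, and its log2 change was 8.09 (SE 0.18, edgeR adjusted p = 3.94e-08). Slc4a1 and Epb42, the latter at 21, 22 and 5 counts untreated, passed the filter here through the treated libraries alone, so both could enter this test only with a difference. Sptb stood at 13.9, 10.6 and 5.9 CPM and rose by 3.84 (SE 0.25, edgeR adjusted p = 1.59e-05) on that scale. The third untreated mutant library was the low one for Sptb and for Epb42, which stood at 0.922, 0.975 and 0.219 CPM and rose by 3.75 (SE 0.42, edgeR adjusted p = 4.26e-04). Of the rest, Ank1 rose by 3.07, Add2 by 3.25, Rhag by 2.90, Rhd by 3.35 and Kel by 2.06 on the log2 scale, with edgeR adjusted p-values from 1.59e-07 for Ank1 to 9.08e-05 for Kel.

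Within Tespa1+/+ mice most of these genes were also higher after 5-FU, at levels below those of the mutant after 5-FU. Slc4a1, at 5, 5 and 0 counts untreated and 1, 0 and 20 counts after 5-FU, did not pass the filter and was not tested, and its groups overlapped. Of the 7 tested, 6 rose, where 3.77% of 17002 genes tested rose by the edgeR quasi-likelihood test. The 7 did not overlap between the groups, as for 13.2% of all genes in this direction. Over all genes 641 rose and 711 fell, a split that became 765 and 549 when libraries were scaled by their totals alone, under which the same 6 of 8 were still called.

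Ank1 was at 7.81, 5.16 and 5.43 CPM in untreated Tespa1+/+ libraries and rose by 1.47 on the log2 scale (SE 0.21, edgeR adjusted p = 0.00324). Sptb was at 2.77, 4.27 and 4.21 CPM and rose by 1.77 (SE 0.27, edgeR adjusted p = 0.00379). These skeleton genes had the firmest changes here, and both calls held whichever single library was left out. Add2, at 3.72, 2.63 and 1.81 CPM untreated, rose by 1.56 (SE 0.38, edgeR adjusted p = 0.0358). That call did not hold without the second or the third untreated library, or without the first or the third treated one, at adjusted p-values of 0.102 to 0.129. Kel, at 1.13, 2.31 and 0.588 CPM untreated, rose by 2.03 (SE 0.47, edgeR adjusted p = 0.0295). It stayed called only without the second untreated library, the high one for Kel, at 2.67, and leaving out any other gave an adjusted p of 0.0512 to 0.097.

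Epb42, Rhag and Rhd were barely detected in untreated Tespa1+/+ LSKs. Epb42 had 0, 4 and 0 counts, Rhag 11, 7 and 0 counts, and Rhd 9, 0 and 0 counts, so each of the 3 passed the filter through the treated libraries alone. After 5-FU they had 57, 27 and 39 counts, 86, 102 and 50 counts, and 69, 55 and 17 counts respectively. Epb42 rose by 4.72 on the log2 scale (SE 1.14, edgeR adjusted p = 0.0366) and Rhag by 3.68 (SE 0.84, edgeR adjusted p = 0.0287). The change fitted for Rhd was 3.94 (SE 1.19, edgeR adjusted p = 0.0817), which did not pass here but did with DESeq2 (adjusted p = 0.00675) and with all 12 libraries in one fit (adjusted p = 0.00425). Epb42 stayed called only without the second untreated library, at 8.36 with no untreated count left, and leaving out any other library gave an adjusted p of 0.091 to 0.150. Rhag did not hold without the second untreated library or any treated one, at 0.0595 to 0.120, and its change was 4.28 without the first untreated library. With that first untreated library left out Rhd passed, at 8.47 (edgeR adjusted p = 0.0237), against a group with no count left.

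The genotype comparison in untreated mice addresses whether LSKs differ before any stress. Higher levels in Tespa1-/- passed the test for 3 of the 6 genes that could be tested, Ank1, Sptb and Kel, where 1.64% of 17055 genes tested rose by the edgeR quasi-likelihood test. The groups did not overlap for 7 of the 8 genes, as for 11.4% of all genes in this direction. Ank1 stood at 13.1, 15.8 and 15.6 CPM in the mutant and was 1.29 higher on the log2 scale (SE 0.20, edgeR adjusted p = 0.009). Sptb was 1.45 higher (SE 0.34, edgeR adjusted p = 0.0464). Kel, at 5.01, 4.52 and 5.77 CPM in the mutant, was 1.93 higher (SE 0.45, edgeR adjusted p = 0.047). The margin was narrow for Sptb and Kel. Sptb stayed called only without the third mutant library and Kel only without the second Tespa1+/+ library, where its difference was 2.56, and leaving out any other library gave adjusted p-values of 0.0854 to 0.174 for Sptb and 0.0585 to 0.168 for Kel. Kel was not called without the filter on low counts either (edgeR adjusted p = 0.0576). Ank1 was not called without the second mutant library (adjusted p = 0.0556) or the third (adjusted p = 0.0524).

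The others were higher in the mutant without passing that test or could not enter it. Rhag and Rhd, at 11, 7 and 0 counts and 9, 0 and 0 counts in Tespa1+/+, had passed the filter through the mutant libraries alone. Rhag stood at 2.24, 2.13 and 2.19 CPM, 3 close values, with a fitted log2 difference of 3.16 (SE 0.80, edgeR adjusted p = 0.0636). Without the third untreated Tespa1+/+ library, which had no Rhag count, the difference was 2.61 and passed (edgeR adjusted p = 0.021). It did not pass without any one of the other 5 libraries, at adjusted p-values of 0.0812 to 0.209, and it was 3.76 without the first Tespa1+/+ library. Rhd stood at 1.32, 2.04 and 1.22 CPM with a difference of 3.66 (SE 1.08, edgeR adjusted p = 0.106), and it passed at 8.11 (edgeR adjusted p = 0.0202) without the first Tespa1+/+ library, a fitted value against a group with no count left that is no measure of size. Both Rhag and Rhd passed with DESeq2 (adjusted p = 8.99e-04 and 0.00919) and with all 12 libraries in one edgeR fit (adjusted p = 0.00262 and 0.0135). Add2, at 5.53, 4.96 and 3.98 CPM, gave 0.84 (SE 0.31, edgeR adjusted p = 0.187). Epb42 was not tested, with 21, 22 and 5 counts in the mutant against 4 counts in all of Tespa1+/+, a ratio of 12.7 with a 95% counting interval of 4.64 to 48.4. Slc4a1 was not tested either, and its untreated groups overlapped. By a looser rule, an unadjusted P below 0.05 with a fold change above 1.5, 6 of the 8 passed, where 3.54% of all genes did so in this direction.

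Whether the response to 5-FU itself depended on genotype was tested with an interaction term over all 12 libraries and 18696 genes. The term passed in the direction of a larger response in Tespa1-/- for 4 of the 8 genes, Slc4a1, Ank1, Sptb and Add2, where 3.02% of all genes did so. For Ank1 it was 1.61 on the log2 scale (SE 0.19, edgeR adjusted p = 3.19e-04) and for Sptb 2.08 (SE 0.36, edgeR adjusted p = 0.00441), and both held in every fit that left out a library. For Add2 it was 1.70 (SE 0.40, edgeR adjusted p = 0.0256), and it did not pass without the first untreated Tespa1+/+ library, the second or the third untreated mutant library or any mutant library after 5-FU, at adjusted p-values of 0.058 to 0.0705. Ank1, Sptb and Add2, the genes of the skeleton, thus carried the terms with the smallest errors among the 4. For Slc4a1 the term was 7.10 (SE 1.63, edgeR adjusted p = 0.0242), and it rested on 0 to 20 counts per library in 3 of the 4 groups. Slc4a1 passed the filter through the mutant libraries after 5-FU alone, the group that makes the term positive. It did not pass at 6.82 (edgeR adjusted p = 0.116) without the first untreated Tespa1+/+ library or at 6.65 (edgeR adjusted p = 0.136) without the second, and it was 10.62 without the third Tespa1+/+ library after 5-FU and 6.49 without the second.

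No interaction was called for Epb42, Rhag, Rhd or Kel. The term for Kel was 0.04, with a 95% interval of -1.06 to 1.13. For Rhag it was -0.74 (interval -2.15 to 0.66), for Rhd -0.52 (interval -2.49 to 1.45) and for Epb42 -0.98 (interval -3.15 to 1.20). For these genes the folds in the mutant and in Tespa1+/+ could not be told apart, and the upper bounds for Rhd and Epb42 were not far below the 1.61 of Ank1. Without the first untreated Tespa1+/+ library the term of Rhd was -5.11, and without the second that of Epb42 was -4.55, since the untreated counts were then 0. Over the untreated libraries these genes had, in the mutant and in Tespa1+/+, 348 and 96 counts for Kel, 149 and 18 for Rhag, 104 and 9 for Rhd and 48 and 4 for Epb42, a difference that passed the test for Kel alone among the 4. Ank1, at 1013 and 450 counts, and Sptb, at 690 and 265, passed both that test and the interaction. That the skeleton genes differ from these 4 in their interaction was not tested.

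**Figure D3:**
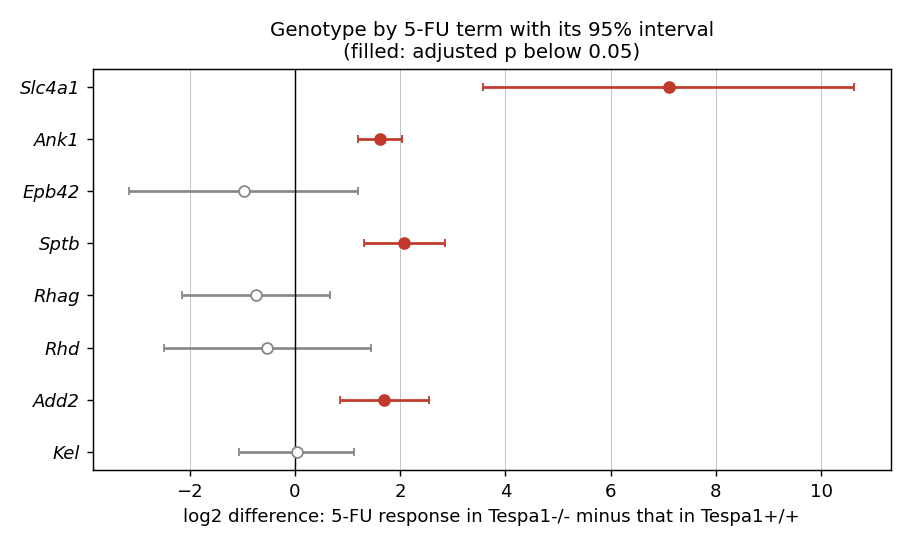
The genotype by 5-FU term of each gene, as the log2 response to 5-FU in Tespa1-/- minus that in Tespa1+/+, with its 95% interval and filled where the adjusted p was below 0.05. Ank1 at 1.61 and Sptb at 2.08 have short intervals above 0, Slc4a1 at 7.10 has a long one, and the intervals of Epb42, Rhag, Rhd and Kel cross 0.

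Levels of different genes were compared per length, as the deposited FPKM (fragments per kilobase of gene length, scaled to library size). The lengths behind these values run from 1750 bases for Rhd to 26133 bases for Ank1, more than one transcript of Ank1 covers, so a gene with many alternative exons is placed lower than its main transcript would be. In Tespa1-/- after 5-FU the order was Slc4a1 at 17.6 ± 1.14 FPKM (SD, n = 3), Sptb at 11.2 ± 0.53, Rhd at 8.97 ± 0.82, Rhag at 7.02 ± 1.04, Kel at 5.83 ± 0.91, Ank1 at 4.79 ± 0.18, Add2 at 3.08 ± 0.03 and Epb42 at 1.15 ± 0.16. In that order Rhag and Kel overlapped between libraries, as did Kel and Ank1, while the other neighbours were apart. In the other 3 groups the order began with Kel, at 0.36 ± 0.24 FPKM in untreated Tespa1+/+, 1.38 ± 0.16 in untreated Tespa1-/- and 1.52 ± 0.09 in Tespa1+/+ after 5-FU. Kel was apart from the next gene, Rhag, in untreated Tespa1-/-, but it overlapped the next gene in the others, Sptb in untreated Tespa1+/+ and Rhag in Tespa1+/+ after 5-FU. Slc4a1 was last or next to last there, between 0.0249 and 0.063 FPKM.

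The make-up of the 8 therefore changed in the mutant after 5-FU. Slc4a1 took 29.1% to 29.9% of their summed FPKM in those 3 libraries and at most 2.81% in any of the other 9. The share of Kel went the other way, at 8.41% to 10.4% of the sum against 19.7% to 41.4% elsewhere, although its own level was highest in those 3 libraries. Sptb held 18.2% to 19.4% in the mutant after 5-FU, which overlapped its share in each of the other groups. Epb42 took at most 3.75% of the sum in any library.

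**Figure D4:**
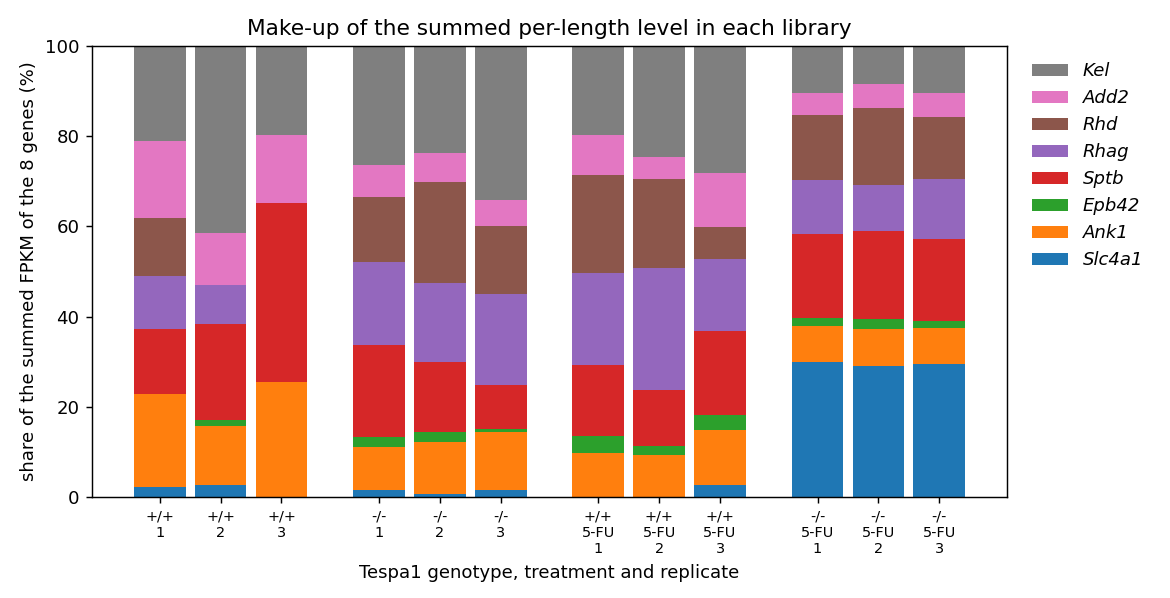
Share of each of the 8 genes in their summed FPKM, one bar for each library, with genotype, treatment and replicate below. The Slc4a1 share at the foot of the bars is 29.1% to 29.9% in the 3 Tespa1-/- libraries after 5-FU and at most 2.81% in the others.

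Beyond the 8, a list of 22 further genes of the red cell membrane and skeleton moved less evenly. After 5-FU, 10 of the 22 were higher in Tespa1-/- and 2 lower by the edgeR test, with a median log2 difference of 0.35. Over all 17239 genes tested there 1265 were higher and 996 lower. Among the largest were Dmtn at 3.41, encoding the actin bundler dematin, and Tspo2 at 2.65. The lower ones were Slc2a1 (GLUT1) and Atp2b4. In untreated LSKs 3 were higher in the mutant and 2 lower, where 280 of all 17055 genes tested were higher and 612 lower. With 5-FU 3 rose and 1 fell in Tespa1+/+, where 641 of 17002 rose and 711 fell. In Tespa1-/- 15 rose and 2 fell with 5-FU, where 1847 of 17228 rose and 1489 fell.

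Relatives of the 8 that serve in other tissues were looked at in the same way. The 18 such genes held ankyrins Ank2 and Ank3, beta spectrins of other cells and the exchanger Slc4a2. The adducin genes Add1 and Add3 were on this list and also on that of the further red cell membrane and skeleton genes, so the lists are not separate. Of the 18, 13 were tested after 5-FU, where 0 were higher in the mutant and 1, Ece1, was lower (edgeR adjusted p = 0.0499), with a median log2 difference of -0.06. Over all 17239 genes tested 1265 were higher and 996 lower. In untreated LSKs 0 of 15 tested were higher and 1 lower. With 5-FU 1 of 13 rose and 0 fell in Tespa1+/+, and 3 of 15 rose and 1 fell in Tespa1-/-. Those 3 were Add1, Add3 and Tgm2, so Add1 and Add3 were counted as rising in both lists. Their summed level was 1532 to 1570 CPM in Tespa1+/+ and 1412 to 1471 CPM in Tespa1-/- after 5-FU.

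Other erythroid genes moved beside the 8. Over all genes tested, 7.34% were higher in Tespa1-/- after 5-FU, and 3.02% passed the interaction in that direction. With 5-FU 3.77% rose in Tespa1+/+ and 10.7% in Tespa1-/-. Of 10 erythroid regulators 5 were higher and 1 lower in Tespa1-/- after 5-FU, the largest changes being those of Klf1 at 1.75, Epor at 1.42 and Gata1 at 0.97 on the log2 scale. In the interaction 0 of the 10 passed by the edgeR test, and 7 of 10 rose with 5-FU in each genotype. Of 11 genes of haemoglobin and haem synthesis 9 were higher in Tespa1-/- after 5-FU, led by Hba-a2, Alas2 (the erythroid enzyme that starts haem synthesis), Hba-a1 and Hbb-bs (3.97), and 8 of the 11 passed the interaction. Alas2 and Hba-a2, with 12 and 11 counts over the 3 Tespa1+/+ libraries after 5-FU, entered the genotype test through the mutant libraries alone, and Alas2 entered the interaction in that way too. Hba-a1 and Hba-a2 are nearly identical, so the split of reads between them is uncertain. Of 8 other late erythroid genes 6 were higher, Trim10, Car1, Mfsd2b and Hemgn leading, and Trim10 too entered through the mutant libraries alone. Summed levels of the haemoglobin and haem genes went from 173 to 186 CPM in Tespa1+/+ after 5-FU to 590 to 653 CPM in Tespa1-/-.

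Genes of other blood cells moved in the same libraries, and their part in the results on the 8 was not tested. The counts below stand beside 1265 genes higher and 996 lower in Tespa1-/- after 5-FU, of all 17239 tested. All 9 of 9 neutrophil genes were higher in Tespa1-/- after 5-FU. Their summed level was 5149 to 5432 CPM against 2322 to 2537 CPM in Tespa1+/+, most of it Mpo at means of 3591 and 2158 CPM. Mpo was already at 2310 CPM in untreated Tespa1+/+, and its log2 difference between genotypes after 5-FU was 0.735. S100a9 was at means of 314 and 1.29 CPM in the same groups after 5-FU. Of the 9, Camp, Ltf, Ngp and S100a8 entered the test through the mutant libraries alone, so they could enter it only with a difference. None was at 0 throughout, though the late granule gene Camp had at most 3 counts in any Tespa1+/+ library after 5-FU and 1263 to 1892 counts in the mutant ones. Of 6 mast cell and basophil genes 5 were higher, Fcer1a and Prss34 having entered in the same way, at 89.6 to 97.6 CPM in sum against 26.9 to 29.6 CPM. Of 9 megakaryocyte genes tested 3 were higher and 1 lower, at 322.6 to 326.8 CPM in sum against 233 to 258 CPM, and of 7 B cell genes 2 were higher, at 323.7 to 343 CPM against 285 to 297 CPM. Of 5 genes for antigens of the sort 3 were higher in the mutant, Itgam (CD11b) and Cd3e among them, although Cd3e, with 0 counts in Tespa1+/+ and 14 to 38 in the mutant libraries, entered through the mutant alone, and the summed level of the 5 was 347 to 368 CPM against 294 to 359 CPM. Of the 10 LSK genes 8 were lower and 0 higher, the largest changes being those of Ly6a, Hlf, Mecom and Flt3.

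The genes whose course over the 12 libraries was most like the mean of the 8 were sought among 14913 genes with a mean of at least 1 CPM, by the root mean square difference of centred log2(CPM + 0.5) values. The nearest was Pklr, the red cell pyruvate kinase, at 0.38, and the 5 nearest also held Mgam at 0.38, Btnl10 at 0.41 and Sgms2 at 0.45. Pklr had means of 1.68, 4.5, 6.13 and 33.7 CPM in the order untreated Tespa1+/+, untreated Tespa1-/-, Tespa1+/+ after 5-FU and Tespa1-/- after 5-FU, the stair of the summed levels. Ank1 lay closest to the mean of the 8, at 0.24, and Slc4a1 farthest, at 1.53, the others falling between 0.32 and 0.63. For Ank1 the nearest genes were Pklr and Dmtn, for Epb42 Pklr and Gda, for Sptb Mgam and Btnl10, for Rhag Pklr and Ermap, for Rhd Pklr and Cldn13, for Add2 Mgam and Pklr and for Kel Fcgr3 and Pklr. The nearest to Slc4a1 were Camp at 0.39 and Chil3 at 0.45, genes of neutrophils and macrophages that were likewise close to 0 in 9 libraries and at 64.7 and 52.8 CPM on average in the mutant after 5-FU.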

How the data were processed

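LSKs were sorted from mouse bone marrow, and poly-A RNA was sequenced as paired ends with a stranded kit, per the labels. The authors deposited one table of gene counts and FPKM for 12 libraries. Both are on GRCm38, and the submitters' processing notes name CASAVA 1.8, HISAT2, StringTie and edgeR without their roles. How counts were made and whether strand was used is not given in the sources used here. The deposited counts were whole numbers without normalization, and the deposited FPKM were those counts scaled by gene length and library size. FPKM was used only to compare levels between genes.

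From the counts, edgeR 4.0.16 in R 4.3.3 (filterByExpr with a minimum count of 10, TMM scaling, quasi-likelihood test) was fitted to the 6 libraries of each comparison, and to all 12 for the interaction, with Benjamini-Hochberg adjustment over all genes tested. A gene was called at an adjusted p below 0.05. CPM used TMM over all 12 libraries. Intervals and the floor of 3 counts cover counting error only. DESeq2 1.42.0, other filters and scalings, the replicate number as a block and leaving out each library were tried as alternatives, and the scripts were tested on simulated counts. No pair of libraries agreed within sampling noise (median chi-square of 2.08 to 5.87 between replicates, against 0.455 for sampling alone). Beside the 8 genes, named genes were up to 4 of each list with the largest genotype difference after 5-FU among those called, and the nearest profiles. The 8 genes and the lists were chosen with earlier results of these data known. Some genes that this rule would name are not reported here.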

Additional observations from a re-analysis of the deposited data

Results flagged for a closer look

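The response to 5-FU differed between the genotypes for 4 of the 8 genes by the interaction term, all with the larger response in Tespa1-/-, where 3.02% of 18696 genes passed in that direction by edgeR. Of the 12 fits without 1 library, Add2 did not pass in 6 and Slc4a1 in 2. The log2 difference in response was 7.10 for Slc4a1, 1.61 for Ank1, 2.08 for Sptb and 1.70 for Add2, Slc4a1 having entered the test through the mutant libraries after 5-FU alone. All 8 genes, these 4 among them, had a higher level in every mutant library after 5-FU than in any other library, as did 8.56% of the 18696. The summed neutrophil genes, of which Mpo was the largest part, moved in the same libraries, to 5149 to 5432 CPM from 2322 to 2537 CPM in Tespa1+/+ after 5-FU. The part of the neutrophil genes in the values of the 4 was not tested.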

How the results depend on the processing

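In both comparisons that use the mutant libraries after 5-FU, each of the 8 genes was called in every alternative that tested it. A minimum of 10 counts in every library left Slc4a1 untested in the genotype comparison, and Slc4a1 and Epb42 in that of treatment. In untreated mice the 3 calls became 5 with DESeq2, 1 with the replicate block (Ank1), 6 with all 12 libraries in one fit, 6 by the looser rule of an unadjusted P below 0.05 with a fold change above 1.5, 2 without the filter on low counts, and 0 to 2 without 1 library. The 6 calls of 5-FU in Tespa1+/+ became 7 with DESeq2, with all 12 libraries and by that looser rule, 4 with at least 10 counts in every library and 2 to 5 without 1 library, and the 4 interaction calls 2 to 4. Same-numbered libraries deviated together with correlations of -0.0222 to 0.034, not every library correlated best with its own number, and the numbers were not taken to pair them. The block also took the 6 calls of 5-FU in Tespa1+/+ to 4, those of Epb42 (adjusted p = 0.0972) and Add2 (adjusted p = 0.0663) not passing, and left 8 genes called in both comparisons that use the mutant libraries after 5-FU and 4 in the interaction. The Kel interaction, 0.04 with an interval across 0, turned negative at -0.0071 without TMM scaling and in 5 of the 12 fits without 1 library, among which it ran from -0.59 (without the second untreated Tespa1+/+ library) to 0.38; the other negative values were -0.0422, -0.0236, -0.0733 and -0.0136.

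Over all genes, the 892 calls between untreated genotypes became 1427 with DESeq2, 454 with the replicate block, 428 with an added fold change above 1.5 and 338 to 808 without 1 library. The 2261 calls after 5-FU became 1204 with that fold change, and 1519 to 1710 without 1 library. The 1352 calls of 5-FU in Tespa1+/+ became 2062 with DESeq2, 2113 with all 12 libraries, 753 with the fold change and 783 to 1102 without 1 library. The 3336 calls in Tespa1-/- became 1735 with the fold change and 2259 to 3060 without 1 library. The 936 interaction calls became 1534 with DESeq2, 1941 by an unadjusted P with the fold change, 601 by the adjusted p with it and 573 to 862 without 1 library. The cause of these shifts was not tested. Slc4a1 and Epb42 had too few counts in untreated libraries to enter the genotype test there.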
